A study of Mus musculus with 31 samples.

Results

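Livers of mouse pups given T3 together with T4 were compared with livers of pups given T4 alone, which gives the effect of T3 in animals that already receive T4. The 15 livers of this comparison, 7 T3+T4 and 8 T4, belong to a series of 31 and were chosen by their treatment label. All 15 pups were C57Bl/6J with the genotype Dio1KO/Dio2KO/Pax8KO and were killed at postnatal day 14. Without Pax8, which the thyroid needs for its follicular cells, they have no thyroid. They also lack the type 1 and type 2 deiodinases, which turn T4 into T3. Injections were given every other day from postnatal day 2, and the labels used here state no dose. The other 16 livers came from Dio1KO/Dio2KO/Pax8KO pups given T3 (6 livers, called T3) or vehicle (5 livers, called vehicle), and from Dio1KO/Dio2KO littermates with 1 intact Pax8 copy given vehicle (5 livers, called control). The deiodinase deletions are thus shared by every group, controls included. The series asks whether thyroxine acts on the neonatal liver by itself.

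Thyroid hormones act in liver mainly through the nuclear receptor THRB, which binds DNA beside thyroid hormone target genes as a partner of RXR. T3 binds this receptor with higher affinity than T4, and deiodination of the outer ring makes T3 from T4. In rodent liver the hormone is known to raise genes of fat and cholesterol metabolism and genes of its own turnover. Serum levels of either hormone were not part of the files, so the amounts that reached the livers are not known here.

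Each liver gave 1 library from 1 animal. Levels are CPM, the count scaled to a common library size after TMM normalization. Fold changes and adjusted p-values come from edgeR over 17057 genes that passed a filter on low counts, and "called" means an adjusted p under 0.05. T3+T4 library totals were larger, at 6353684 ± 534439 counts, against 5343109 ± 528829 in T4 livers (SD, n = 7 and 8). The animal numbers of T3+T4 pups were 72 to 85, against 40 to 71 in T4 pups, so animal number and treatment cannot be told apart. RNA of pancreatic acinar cells was uneven: the 8 markers tested summed to 3.66 to 224 CPM in T3+T4 livers (median 11.3), against 2.47 to 13.8 CPM in T4 livers (median 3.56). The skeletal muscle markers summed to 2.57 to 94 CPM in T3+T4 livers (median 6.41) and 2.82 to 265 CPM in T4 livers (median 24.5). The hepatocyte markers summed to 5090 to 6950 CPM in T3+T4 livers and 5990 to 7500 CPM in T4 livers, so the tissue label matched its markers in every library. In bulk tissue, fewer cells of a type and less RNA per cell cannot be told apart. The sex genes went against the labelled sex in T3+T4 animal 79 and T4 animal 54. Of the deleted genes, Pax8 had a mean deposited count of 11.14 ± 5.43 in T3+T4 livers and 15 ± 7.52 in T4 livers (SD). Dio2 had 18 ± 4.86 in T3+T4 livers and 16.88 ± 13.1 in T4 livers. Dio1 had 1188 ± 286 in T3+T4 livers and 184.9 ± 96 in T4 livers. Which part of each gene is deleted is not stated in the labels, so reads on a gene do not check its deletion.

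Adding T3 to T4 changed 1469 of the 17057 genes (8.61%). Of these, 693 genes (4.06%) were higher in T3+T4 livers and 776 genes (4.55%) were lower. In 147 genes (0.862%) every T3+T4 liver lay above every T4 liver, and in 79 genes (0.463%) every T3+T4 liver lay below. The median log2 fold change over all genes was -0.0034. The rises included 20 of 26 genes of cholesterol synthesis and uptake and the amylase genes. The falls included 9 of 12 genes typical of fetal and newborn liver, type 3 deiodinase and thyroxine-binding globulin. The count depended on the libraries: it was 947 without T3+T4 animal 72 and 972 without T4 animal 70. It was 676 in a fit without the 3 T3+T4 and 2 vehicle livers with raised acinar markers. It was 143 without all livers with raised acinar or muscle markers, which leaves 3 T3+T4 and 5 T4 livers.

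**Figure D1:**
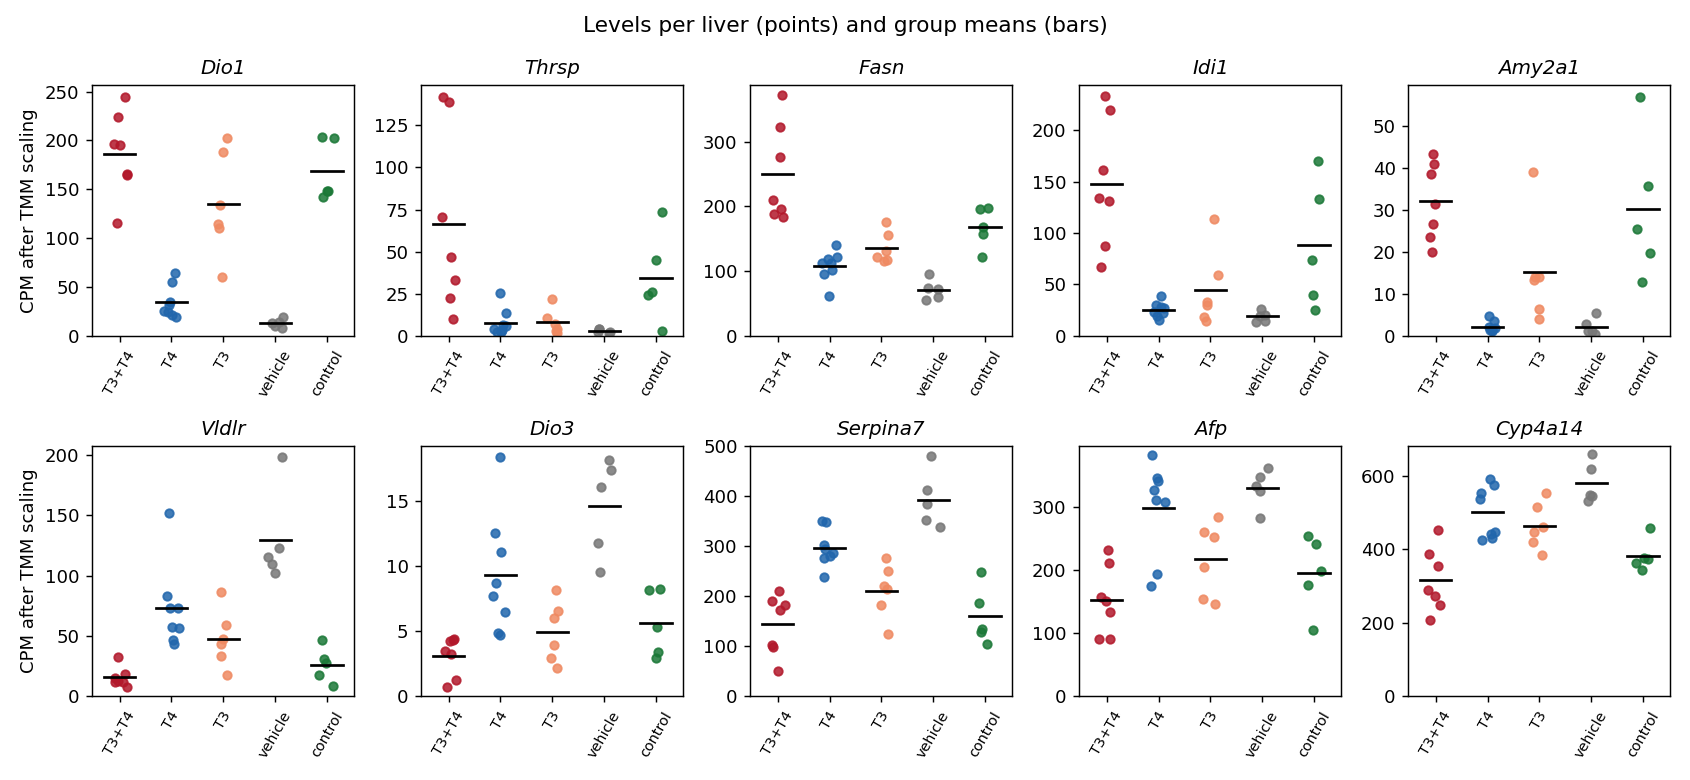
Levels of 10 genes in CPM, in each liver of 5 groups (from left to right T3+T4, T4, T3, vehicle and control). Points are livers, bars are means and every axis starts at 0. Dio1, Thrsp, Fasn, Idi1 and Amy2a1 were higher in T3+T4 than in T4 livers, and Vldlr, Dio3, Serpina7, Afp and Cyp4a14 were lower. Dio1 lay between 115 and 245 CPM in T3+T4 livers and between 18.8 and 64.5 CPM in T4 livers.

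Dio1, the gene of type 1 deiodinase and a standard marker of thyroid hormone action in liver, lies on chromosome 4 (mm10, 107291465 to 107307169). Reads were assigned to it in every library despite the deletion. Its level was 115 to 245 CPM in T3+T4 livers (median 195) and 18.8 to 64.5 CPM in T4 livers (median 28.4). Every T3+T4 liver lay above every T4 liver. The log2 fold change was 2.44 ± 0.25 (SE, 95% interval 1.93 to 2.95), a 5.42-fold rise with an adjusted p of 1.68e-06. Control livers, with a thyroid, averaged 169 ± 31.8 CPM (SD, n = 5), a level inside the T3+T4 range and above every T4 liver's.

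Of 18 genes known to be induced by thyroid hormone in liver, 6 rose and 0 fell when T3 was added. The shares over all genes were 4.06% and 4.55%, and the list's median log2 fold change was 0.32. Besides Dio1 the 6 included Thrsp, Me1, Klf9 and Cyp7a1. Thrsp, the thyroid hormone responsive Spot 14 protein of fat synthesis, was at 9.81 to 142 CPM in T3+T4 livers (median 46.5) and 1.93 to 25.5 CPM in T4 livers (median 4.81). Its log2 fold change was 3.10 ± 0.61 (SE, adjusted p = 0.00205). The groups overlapped, since T3+T4 animals 78 and 79 had 9.81 and 22.5 CPM and T4 animal 40 had 25.5 CPM. Control livers ranged from 2.71 to 73.4 CPM. Without T4, Thrsp was 1.46 higher on the log2 scale with T3 than with vehicle and was not called (adjusted p = 0.352). T3 livers averaged 7.89 CPM and vehicle livers 2.88 CPM. The T3 effects with and without T4 did not differ past the threshold for this gene (adjusted p = 0.639). Me1, the cytosolic malic enzyme that supplies NADPH for fat synthesis, rose by 1.03 ± 0.30 (SE) on the log2 scale (adjusted p = 0.03). Klf9, a transcription factor induced directly by T3 in several tissues, rose by 0.75 ± 0.24 (adjusted p = 0.0429). Cyp7a1, the rate-limiting enzyme of bile acid synthesis, rose by 1.00 ± 0.31 (adjusted p = 0.0428). These last 3 calls were close to the threshold. That of Me1 was lost in the fits without 1 of 6 livers (T3+T4 78, 84 or 85, T4 58, 69 or 70). That of Klf9 was lost without 1 of 10 livers (T3+T4 72, 77, 79, 80 or 85, T4 54, 58, 69, 70 or 71). That of Cyp7a1 was lost without 1 of 9 livers (T3+T4 72, 77, 84 or 85, T4 46, 54, 58, 69 or 71). The list's count of 6 was 3 without T3+T4 85, T4 58 or T4 69.

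The other 12 members were not called. Gpd2, the mitochondrial glycerol phosphate dehydrogenase and a classic T3 target in rat liver, had 144 to 298 CPM in T3+T4 livers and 135 to 295 CPM in T4 livers (log2 0.32 ± 0.25, adjusted p = 0.503). In livers without T4, the same gene was 1.35 higher on the log2 scale with T3 than with vehicle (adjusted p = 0.00917). Bcl3, a transcriptional coregulator, had log2 fold changes of 0.40 with T3+T4 over T4 (adjusted p = 0.16) and 1.12 with T3 over vehicle (adjusted p = 0.0022). Neither difference between the T3 effect with T4 and the T3 effect without T4 passed the test (adjusted p = 0.354 for Gpd2 and 0.351 for Bcl3). The gluconeogenic genes Pck1 and G6pc had log2 fold changes of -0.05 and 0.09, and Cpt1a, the carnitine carrier enzyme of fatty acid entry into mitochondria, had -0.18 (adjusted p = 0.738, 0.694 and 0.161). Upp2, a liver uridine phosphorylase, and Ucp2, a mitochondrial carrier, had log2 fold changes of 0.77 and 0.32 (adjusted p = 0.0711 and 0.0882).

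**Figure D2:**
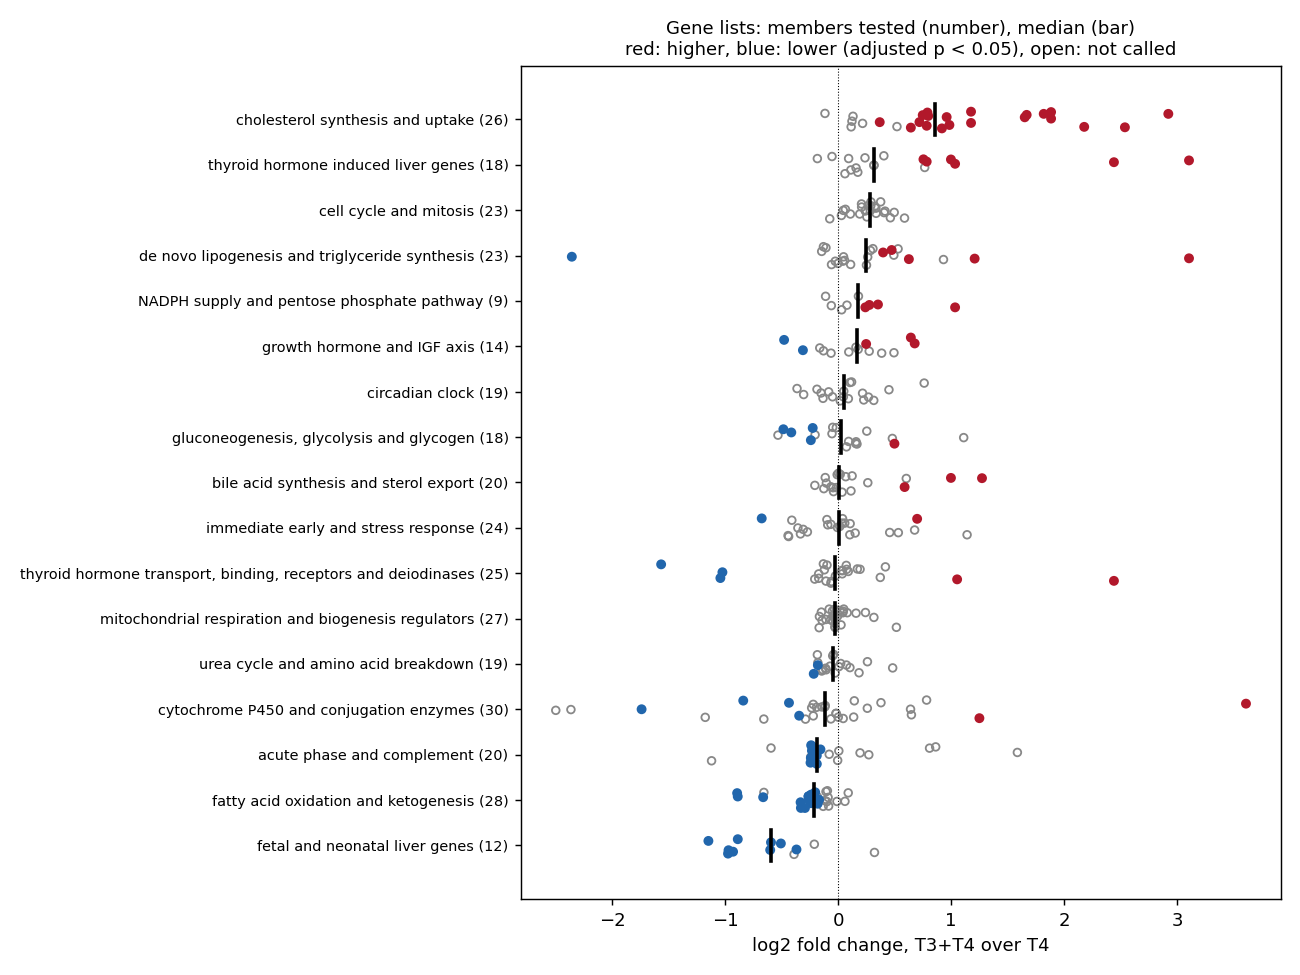
Log2 fold change, T3+T4 over T4, for each tested member of 17 functional gene lists. Red points are called higher, blue points called lower, open points not called, and the black bar is the list's median. Cholesterol genes had a median of 0.86 and fetal and newborn liver genes a median of -0.60.

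Among 25 tested genes that carry, bind, sense or deiodinate thyroid hormone, 2 rose and 3 fell, beside 4.06% and 4.55% of all genes. The list's median was -0.02 on the log2 scale. Dio3 encodes type 3 deiodinase, which inactivates both T4 and T3 by removing an inner-ring iodine. It was at 0.735 to 4.44 CPM in T3+T4 livers (median 3.52) and 4.72 to 18.4 CPM in T4 livers (median 8.24), with no overlap. Its log2 fold change was -1.57 ± 0.34 (SE, adjusted p = 0.00502). Dio3os, transcribed from the opposite strand at the same locus, had a log2 fold change of -1.51 ± 0.39 (adjusted p = 0.0143). Use of strand in the counting is not stated, so reads of the pair cannot be told apart. Serpina7, the thyroxine-binding globulin that carries the hormone in serum, was at 50.7 to 211 CPM in T3+T4 livers (median 173) and 238 to 351 CPM in T4 livers (median 290). Again no liver of one group lay in the range of the other, and the log2 fold change was -1.04 ± 0.22 (adjusted p = 0.0034). Slc16a10, the cell membrane carrier MCT10 of T3 and aromatic amino acids, rose by 1.05 ± 0.29 (adjusted p = 0.0219). T4 animal 40 stood apart with 208 CPM, and the call was lost without T3+T4 animal 72. Slco1a1, an organic anion carrier of the hepatocyte membrane, was at 5.07 to 12.2 CPM in T3+T4 livers and 11.9 to 33.6 CPM in T4 livers (log2 -1.02 ± 0.31, adjusted p = 0.0391). Its call was lost in fits without 1 of 6 livers (T3+T4 72, 78, 84 or 85, T4 43 or 46). The count of 5 called genes in this list was 3 without T3+T4 animal 72 and 3 without the livers with raised acinar markers.

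Of 23 genes of fatty acid and triglyceride synthesis, 5 rose (Thrsp, Mid1ip1, Acss2, Acaca and Fasn) and 1 fell (Cidec). The shares over all genes were 4.06% and 4.55%, and the list's median was 0.25. Fasn, the fatty acid synthase, was at 183 to 372 CPM in T3+T4 livers (median 210) and 61.6 to 141 CPM in T4 livers (median 113). The ranges did not overlap, and the log2 fold change was 1.21 ± 0.16 (SE, adjusted p = 3.25e-05). Acaca, the acetyl-CoA carboxylase that makes the malonyl-CoA used by Fasn, was at 149 to 173 CPM in T3+T4 livers and 101 to 130 CPM in T4 livers, again with no overlap. Its change was smaller, at 0.47 ± 0.07 (adjusted p = 5.68e-05). Acss2, which makes cytosolic acetyl-CoA from acetate, rose by 0.63 ± 0.16 (adjusted p = 0.0159). Mid1ip1, the partner of Spot 14, rose by 0.40 ± 0.11 (adjusted p = 0.0182). Both calls were lost without T3+T4 animal 72. Cidec, a protein of the lipid droplet surface, was at 2.21 to 23.2 CPM in T3+T4 livers (median 5.86) and 5.85 to 110 CPM in T4 livers (median 27.6). The T4 livers thus differed widely among themselves, and the log2 fold change was -2.36 ± 0.56 (adjusted p = 0.0093). Of 9 genes of NADPH supply and the pentose phosphate pathway, 4 rose and 0 fell, beside 4.06% and 4.55% of all genes. The 4 were Me1, transketolase Tkt (0.24), ribulose phosphate epimerase Rpe (0.35) and cytosolic isocitrate dehydrogenase Idh1 (0.28). Their adjusted p-values were 0.03, 0.00992, 0.0113 and 0.0207, in the same order. The call of Idh1 was lost without T3+T4 85 or T4 46, and 2 of the 4 calls were left without T3+T4 85.

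Of 26 genes of cholesterol synthesis and uptake, 20 rose and 0 fell, with a median log2 fold change of 0.86 beside -0.0034 for all genes tested. In 10 of the 20 every T3+T4 liver lay above every T4 liver. The pathway runs from acetyl-CoA through mevalonate and squalene to cholesterol and is driven by the transcription factor SREBP2. Of its 4 listed regulators 2 rose, SREBP2 itself (Srebf2, 138 to 222 CPM in T3+T4 livers and 83.6 to 121 CPM in T4 livers; log2 0.79 ± 0.13, adjusted p = 0.000311). The other was Insig1, which holds SREBP2 in the endoplasmic reticulum, with a log2 fold change of 0.98 ± 0.28 (adjusted p = 0.0274). Its groups overlapped, and its call was lost in fits without 1 of 9 livers (T3+T4 72, 80, 84 or 85, T4 43, 46, 69, 70 or 71). Scap and Insig2, the other regulators on the list, were not called.

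Along the pathway, Hmgcs1, the cytosolic HMG-CoA synthase, was at 307 to 463 CPM in T3+T4 livers and 171 to 259 CPM in T4 livers (log2 0.72 ± 0.15, adjusted p = 0.00354). Idi1, the isopentenyl diphosphate isomerase, was at 67.3 to 232 CPM in T3+T4 livers (median 134) and 15.2 to 38.7 CPM in T4 livers (median 25.1). In neither enzyme did the groups overlap. Idi1 was 5.8-fold higher (log2 2.54 ± 0.39, adjusted p = 0.000135). Its spread within other groups was wide, at 25.2 to 170 CPM in control livers and 14.2 to 114 CPM in T3 livers. Sqle, the squalene epoxidase, was at 24.7 to 155 CPM in T3+T4 livers (median 72.9) and 7.93 to 14.7 CPM in T4 livers (median 11.2). It was 7.57-fold higher (log2 2.92 ± 0.48, adjusted p = 0.00031), and T3+T4 animals 84 and 85 had the highest values, at 155 and 154 CPM. Sqle likewise varied within control livers (8.81 to 90.6 CPM) and T3 livers (11.8 to 95.7 CPM). Fdps, Cyp51 and Msmo1, which make farnesyl diphosphate and remove methyl groups from lanosterol, rose by 1.88, 1.88 and 2.18 on the log2 scale (adjusted p = 8.32e-05, 0.00025 and 4.83e-05). Sc5d, a desaturase of a late step, rose by 0.37 (adjusted p = 0.025; lost without T3+T4 72, 84 or 85 or T4 43 or 69), while Fdft1, Hsd17b7 and Ebp did not pass the test.

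**Figure D3:**
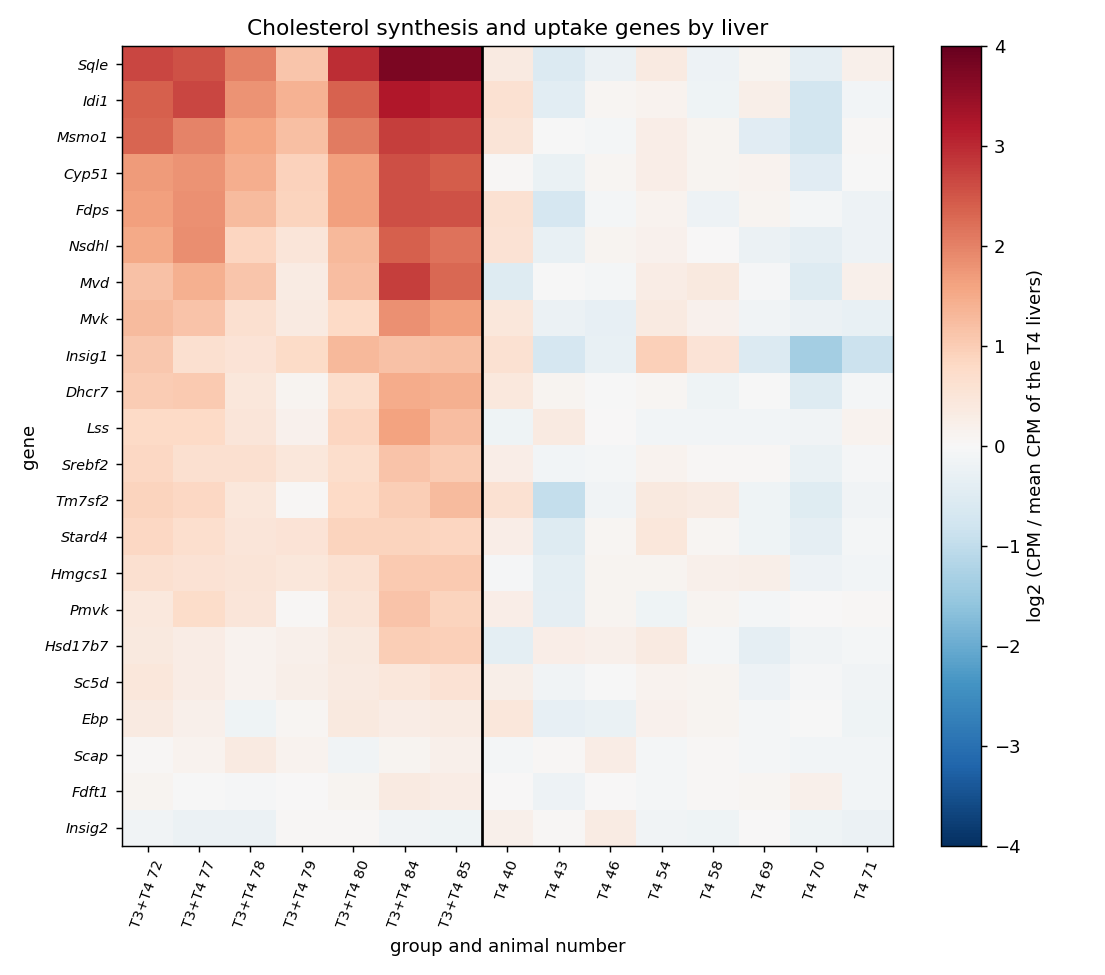
Log2 of CPM over the mean CPM of the T4 livers, for 22 of the 26 tested cholesterol genes (rows) in 7 T3+T4 livers and then 8 T4 livers (columns). Red is above and blue below the T4 mean. T3+T4 animals 84 and 85 had the highest Sqle, at 155 and 154 CPM, and animal 79 the lowest among the T3+T4 livers, at 24.7 CPM.

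Counts of called cholesterol genes were 17 without the livers with raised acinar markers, 13 without those with raised acinar or muscle markers, 15 among animals numbered 54 to 85, and 20 with the log2 total as a covariate. The fits that each omit 1 library gave 17 to 21. With the 3 T3+T4 and 3 T4 livers of matched library totals, 0 genes of the list passed edgeR's adjusted threshold, 19 had an unadjusted p under 0.05, and the median was 0.84. Bile acid synthesis, which uses cholesterol, had 3 rises among 20 genes and 0 falls, beside 4.06% and 4.55% of all genes. By edgeR's unadjusted p under 0.05, 5 of the 20 were higher and 3 lower. Cyp7a1 is described above. Cyp7b1, the oxysterol hydroxylase of the alternative pathway, rose by 1.27 ± 0.32 (adjusted p = 0.0123), and Cyp27a1, the sterol 27-hydroxylase, by 0.59 ± 0.15 (adjusted p = 0.0141).

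The promoters of 3 cholesterol genes are printed because these genes rose together and the windows hold letters of known binding sites. They are from RefSeq (build GRCm38.p6), run from 250 bases before to 50 after the start, and are written 5′ to 3′ on the gene's strand. Capitals mark the box CCAAT on either strand (ATTGG where reversed), to which NF-Y, a known partner of SREBP2, binds, and in Hmgcs1 also TCACCCCAC, a match to the sterol element letters TCACNCCAC. The genes were chosen after their values were seen. Hmgcs1 is at chr13:119690101-119690400 (plus strand), Idi1 at chr13:8885356-8885655 (plus strand) and Msmo1 at chr8:64733529-64733828 (minus strand).
Hmgcs1: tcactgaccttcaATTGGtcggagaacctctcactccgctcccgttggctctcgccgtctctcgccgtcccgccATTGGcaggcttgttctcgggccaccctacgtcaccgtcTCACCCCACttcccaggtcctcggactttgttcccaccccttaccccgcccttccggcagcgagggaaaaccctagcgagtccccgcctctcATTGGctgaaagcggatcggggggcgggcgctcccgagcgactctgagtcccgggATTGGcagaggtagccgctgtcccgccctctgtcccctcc
Idi1: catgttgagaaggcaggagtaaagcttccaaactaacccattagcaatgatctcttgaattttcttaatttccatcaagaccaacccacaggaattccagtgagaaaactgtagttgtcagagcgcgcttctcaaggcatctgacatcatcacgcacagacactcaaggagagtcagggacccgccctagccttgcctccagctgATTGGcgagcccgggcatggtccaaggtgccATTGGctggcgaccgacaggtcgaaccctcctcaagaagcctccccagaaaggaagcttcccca
Msmo1: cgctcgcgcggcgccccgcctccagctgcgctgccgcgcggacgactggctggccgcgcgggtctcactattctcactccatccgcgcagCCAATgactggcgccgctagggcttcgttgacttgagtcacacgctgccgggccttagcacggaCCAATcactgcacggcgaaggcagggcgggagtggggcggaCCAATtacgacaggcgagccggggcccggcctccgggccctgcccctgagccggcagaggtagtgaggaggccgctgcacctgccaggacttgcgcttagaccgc

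Hmgcs1 held 4 CCAAT boxes, Idi1 held 2 and Msmo1 held 3. Of the 20 risen cholesterol genes 14 had a promoter in the table, and 14 of the 14 held CCAAT on either strand. Of the 4 uncalled cholesterol genes with a promoter, 3 held it. The box was in 37.4% of all 32851 promoters, in 42.6% of the tested genes with a promoter, in 49.1% of the genes called higher and in 42.3% of the genes called lower. TCACNCCAC was in 1 of the 14, against 1.24% of all promoters. A match is a description of letters only.

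The 8 largest rises among genes of at least 5 CPM without overlap between the groups were Col4a3, Serpina9, Slc6a11, Sult5a1 and 4 pancreatic-type amylase genes. Amy2a1 encodes alpha-amylase, which digests starch and is made chiefly in pancreas. It was at 20 to 43.2 CPM in T3+T4 livers (median 31.4) and 1.05 to 4.68 CPM in T4 livers (median 1.73). The rise was 15-fold (log2 3.90 ± 0.44, SE, adjusted p = 8.1e-06). Control livers averaged 30.1 CPM. Amy2a2, Amy2a3, Amy2a4, Amy2a5 and Amy2b had log2 fold changes of 3.63, 3.54, 3.62, 3.54 and 3.45. These paralogs are nearly identical, so which copy the reads came from is uncertain, and the genes are not independent.

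The levels of pancreatic acinar markers were also raised in some T3+T4 livers: 8 of 8 tested markers were called higher, with a median log2 fold change of 3.58, and in 0 of the 8 were the groups apart. Cel, carboxyl ester lipase, was at 49.1, 31.8 and 15.8 CPM in T3+T4 animals 78, 79 and 85, and at 0.147 to 3.17 CPM in the other 4 T3+T4 livers. T4 livers had 0.176 to 1.05 CPM. Across T3+T4 livers amylase did not follow this pattern: in T3+T4 animals 72, 77 and 84, Cel was at 0.319, 0.147 and 0.298 CPM while Amy2a1 was at 31.4, 40.9 and 26.7 CPM. In T3 livers Cel was at 0.151 to 0.298 CPM and Amy2a1 at 4.06 to 39.1 CPM. In vehicle livers they moved together at lower amylase levels: animals 37 and 2019 had 45 and 9.92 CPM of Cel and 5.47 and 2.86 CPM of Amy2a1. The other 3 vehicle livers had 0.184 to 1.91 CPM of Cel and 0.424 to 1.1 CPM of Amy2a1. The 8 calls were 2 without T3+T4 animal 78 and 4 or 5 without T3+T4 79 or 85 or T4 43, 46, 58, 69, 70 or 71. Without the 3 T3+T4 and 2 vehicle livers of raised acinar markers, only 3 acinar genes passed the filter. Of these, 0 were called or had an unadjusted p under 0.05 (edgeR). The 5 Amy2a genes and Amy2b kept their calls in every alternative tried. Cela1, a pancreatic elastase gene, was also apart between the groups, at 18.5 to 25.7 CPM in T3+T4 livers and 9.25 to 17.3 CPM in T4 livers (log2 0.91 ± 0.13, adjusted p = 8.71e-05).

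The other large rises were in genes of varied known roles. Col4a3, a type IV collagen chain of basement membranes (chromosome 1, 82586921 to 82722059, mm10), was at 15.7 to 122 CPM in T3+T4 livers (median 23.3) and 1.84 to 5.29 CPM in T4 livers (median 2.51). It was 19.1-fold higher (log2 4.25 ± 0.53, adjusted p = 1.59e-05), and T3+T4 animals 72 and 85 had the highest levels, at 122 and 106 CPM. Its neighbour Col4a4, which starts beside it on the opposite strand, was at 9.51 to 59.1 CPM in T3+T4 livers and 2.27 to 4.08 CPM in T4 livers (log2 2.93 ± 0.38, adjusted p = 2.39e-05). Both chains of this head-to-head pair were thus higher in every T3+T4 liver than in any T4 liver. Serpina9, a serine protease inhibitor, was at 2.69 to 18 CPM in T3+T4 livers and 0.186 to 0.944 CPM in T4 livers (log2 4.09 ± 0.53, adjusted p = 2.44e-05). Slc6a11, a GABA transporter, was at 1.5 to 28.2 CPM in T3+T4 livers and 0.321 to 1.43 CPM in T4 livers (log2 3.97 ± 0.58, adjusted p = 8.09e-05). With 1 taken off each count, T4 livers held 17 counts of Serpina9 in all (2 livers at 0) and 24 of Slc6a11. Their T4 levels thus lay near the floor, and the sizes of both fold changes are uncertain. Sult5a1, a cytosolic sulfotransferase, was at 6.16 to 49.8 CPM in T3+T4 livers and 0.459 to 3.17 CPM in T4 livers (log2 3.61 ± 0.48, adjusted p = 2.69e-05). Csrp3, a LIM domain protein known from striated muscle, rose by 1.80 ± 0.30 (adjusted p = 0.000333) with no overlap.

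Promoters of 3 of the genes that rose most are printed because they hold the letters AGGTCA, the half-site of nuclear receptors including the thyroid hormone receptor. Capitals mark AGGTCA, searched on both strands. The windows are again RefSeq promoters of GRCm38.p6. Amy2a1 is at chr3:113532379-113532678 (minus strand), Amy2a2 at chr3:113356609-113356908 (minus strand) and Slc6a11, chosen after its values were seen, at chr6:114130991-114131290 (plus strand).
Amy2a1: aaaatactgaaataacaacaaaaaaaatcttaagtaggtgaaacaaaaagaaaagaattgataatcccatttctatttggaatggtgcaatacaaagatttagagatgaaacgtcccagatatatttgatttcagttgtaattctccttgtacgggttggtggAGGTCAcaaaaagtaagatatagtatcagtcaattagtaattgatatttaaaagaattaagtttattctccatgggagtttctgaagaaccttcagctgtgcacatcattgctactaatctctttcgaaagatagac
Amy2a2: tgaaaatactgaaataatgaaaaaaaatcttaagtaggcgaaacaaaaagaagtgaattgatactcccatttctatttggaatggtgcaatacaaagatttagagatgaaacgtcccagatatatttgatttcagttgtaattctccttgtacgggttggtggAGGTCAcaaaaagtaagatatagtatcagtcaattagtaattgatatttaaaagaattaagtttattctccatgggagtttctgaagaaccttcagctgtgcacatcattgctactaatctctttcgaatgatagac
Slc6a11: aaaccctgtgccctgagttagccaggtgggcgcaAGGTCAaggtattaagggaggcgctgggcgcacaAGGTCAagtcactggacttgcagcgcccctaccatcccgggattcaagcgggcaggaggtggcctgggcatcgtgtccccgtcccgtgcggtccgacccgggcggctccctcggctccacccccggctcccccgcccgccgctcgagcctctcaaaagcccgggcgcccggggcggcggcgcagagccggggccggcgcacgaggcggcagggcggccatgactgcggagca

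In both amylase promoters the half-site begins 87 bases before the start, and in Slc6a11 it begins 216 and 182 bases before. Amy2a1 differs from Amy2a2 at 18 of 300 bases, and the windows of Amy2a2, Amy2a3 and Amy2a4 are identical. Of the 8 largest rises, 6 had a promoter and 5 held AGGTCA, 4 of which are the amylase paralogs, and of the 8 largest falls 7 had a promoter and 0 held it. The letters were in 16.3% of all promoters, in 17.7% of the genes called higher and in 18.7% of the genes called lower. The direct repeat of AGGTCA with a gap of any 4 bases was in 5 of 32851 promoters and in 0 of the tested genes.

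Among genes of at least 5 CPM without overlap between the groups, the largest fall was in Vldlr, the receptor that takes up triglyceride-rich lipoproteins. It was at 7.9 to 32.8 CPM in T3+T4 livers (median 12.8) and 43 to 152 CPM in T4 livers (median 65.3). The ranges did not overlap, and Vldlr was 4.56-fold lower (log2 -2.19 ± 0.34, SE, adjusted p = 0.000158). Abcc3, an exporter of conjugated bile acids and drugs toward the blood, was at 47.4 to 107 CPM in T3+T4 livers and 111 to 273 CPM in T4 livers (log2 -1.37 ± 0.22, adjusted p = 0.000189). The P450 genes Cyp2c67 and Cyp2d9 were at 54.4 to 96.5 and 80.5 to 152 CPM in T3+T4 livers, and at 112 to 185 and 152 to 216 CPM in T4 livers (log2 -1.08 and -0.84, adjusted p = 5.6e-05 and 0.000967). The remaining falls in this group were Dio3 and Serpina7, given above, and Rad9b and Il17rb. Rad9b, a paralog of a DNA damage checkpoint subunit, was at 1.29 to 4.95 CPM in T3+T4 livers and 5.85 to 7.54 CPM in T4 livers (adjusted p = 0.00025). Il17rb, a receptor of interleukin 17 family members, was at 25.3 to 53.5 CPM in T3+T4 livers and 55.2 to 134 CPM in T4 livers (adjusted p = 0.0114). Of 30 P450 and conjugation genes listed, 2 rose (Sult5a1 and Akr1c18) and 4 fell, beside 4.06% and 4.55% of all genes. The count of 6 was 3 without T4 animal 70 and 11 without the animals of mismatched sex. Akr1c18, a steroid dehydrogenase that inactivates progesterone, was at 38.9 to 77.7 CPM in T3+T4 livers and 10.4 to 31.2 CPM in T4 livers (log2 1.25 ± 0.33, adjusted p = 0.0174).

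Most of the listed genes that are high in fetal liver and decline after birth were lower with T3. Of 12 tested, 9 fell and 0 rose, beside 4.55% and 4.06% of all genes. The list's median log2 fold change was -0.60. Afp, alpha-fetoprotein, the main serum protein of the fetus, was at 90.6 to 232 CPM in T3+T4 livers (median 152) and 175 to 383 CPM in T4 livers (median 320). The T4 animals 40 and 43, at 194 and 175 CPM, lay inside the T3+T4 range, and the log2 fold change was -0.97 ± 0.21 (SE, adjusted p = 0.00433). The imprinted growth factor Igf2 was at 278 to 764 CPM in T3+T4 livers (median 584) and 501 to 1259 CPM in T4 livers (median 1138), with a log2 fold change of -0.89 ± 0.23 (adjusted p = 0.0139). T4 animal 40 again gave the lowest T4 level. Of the other imprinted genes, the noncoding RNAs Meg3 and H19 fell by 1.15 and 0.37 on the log2 scale (adjusted p = 0.00523 and 0.0115), and Peg3, a zinc finger gene, fell by 0.93 (adjusted p = 0.0145). Grb10, an inhibitor of insulin receptor signalling, fell by 0.59 (adjusted p = 0.0113), and Gpc3, a surface glypican, by 0.51 (adjusted p = 0.022). Dlk1 and Cdkn1c fell by 0.97 and 0.60 (adjusted p = 0.0419 and 0.0462). Control livers were not uniformly near the T3+T4 livers. They averaged 1045 CPM of Igf2 and 567 CPM of H19. For these, T4 livers averaged 1032 and 571 CPM and T3+T4 livers 558 and 442 CPM. Afp and Meg3 averaged 195 and 30.4 CPM in control livers, 299 and 67 CPM in T4 livers and 152 and 30.1 CPM in T3+T4 livers. Dlk1 averaged 5.59 CPM in control livers, 57.6 CPM in T4 livers and 29.3 CPM in T3+T4 livers. The call of Dlk1 was lost without any 1 of 12 livers (T3+T4 72, 77, 79, 80, 84 or 85, T4 43, 46, 58, 69, 70 or 71). That of Cdkn1c was lost without any 1 of 10 (T3+T4 72, 77, 79, 80, 84 or 85, T4 54, 58, 69 or 70), and that of Gpc3 without T3+T4 animal 72 or T4 animal 46. The count of 9 was 2 without the livers with raised acinar markers, 5 with the log2 total as a covariate and 6 among animals numbered 54 to 85. Without the livers with raised acinar or muscle markers edgeR called 0, with 7 genes lower at an unadjusted p under 0.05, and the median was -0.53.

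Fatty acid oxidation and ketogenesis genes were lower in 15 of 28 and higher in 0, with a median log2 fold change of -0.22. Cyp4a14, a fatty acid omega-hydroxylase and target of the receptor PPARA, was at 208 to 452 CPM in T3+T4 livers and 425 to 590 CPM in T4 livers (log2 -0.66 ± 0.12, adjusted p = 0.00107). Cyp4a10, its paralog, was at 67.5 to 237 CPM in T3+T4 livers and 180 to 385 CPM in T4 livers (log2 -0.89 ± 0.23, adjusted p = 0.0159). The changes of the mitochondrial enzymes were smaller: Acadm and Acadl, medium- and long-chain acyl-CoA dehydrogenases, fell by 0.33 and 0.26 (adjusted p = 0.000652 and 0.00229). Acute phase and complement genes were lower in 9 of 20 and higher in 0, with a median of -0.19. Fibrinogen chains Fga and Fgg and complement C3 each fell by 0.23 or 0.24 (adjusted p = 0.0142, 0.0075 and 0.0123). The hepatocyte marker list had 2 calls of 10, Apoa1 (-0.23, adjusted p = 0.0114) and Serpina1a (-0.20, adjusted p = 0.0454). Both lay above 1 count per exonic base (1.37 and 1.33), where 45.5% of genes were called lower, beside 4.55% of all genes. The call of Apoa1 was lost without a filter and among animals numbered 54 to 85. It was also lost with log2 library total as a covariate and at matched library totals. The call of Serpina1a was lost without T3+T4 72, 77, 78, 80 or 84 or T4 40, 46, 58, 69 or 70.

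A measured property of the counts moved with these falls. The deposited counts level off near 2 per exonic base, and T3+T4 libraries were larger. Of 112 genes above 1 count per base, 0 were called higher and 51 lower (45.5%), with a median log2 fold change of -0.19. Of 549 genes with 0.5 to 1 count per base, 157 (28.6%) were called lower. Of 14394 genes with up to 0.2 counts per base, 607 were called higher and 369 lower. Among fatty acid oxidation genes of up to 0.2 counts per base 3 of 7 were lower, and among such acute phase genes 0 of 6 (edgeR), while 16 of 19 such cholesterol genes were higher. Among such fetal and newborn liver genes 3 of 6 were lower, with a median of -0.49. H19, at 1.19 counts per base, had a log2 fold change of -0.12 and was not called with log2 library total as a covariate (adjusted p = 0.474), nor was Igf2, at 0.804 counts per base (log2 -0.79, adjusted p = 0.112). With log2 library total as a covariate the counts of falls were 3 for fatty acid oxidation (median -0.16) and 0 for the acute phase (median -0.0062, with 1 gene lower and 5 higher at an unadjusted p under 0.05). With counts corrected for a ceiling of 2 per exonic base, 675 genes were called higher and 709 lower, beside 693 and 776 before. Of the 101 called named genes, 94 kept their call in that fit. The part of count density in these falls was not tested further.

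**Figure D4:**
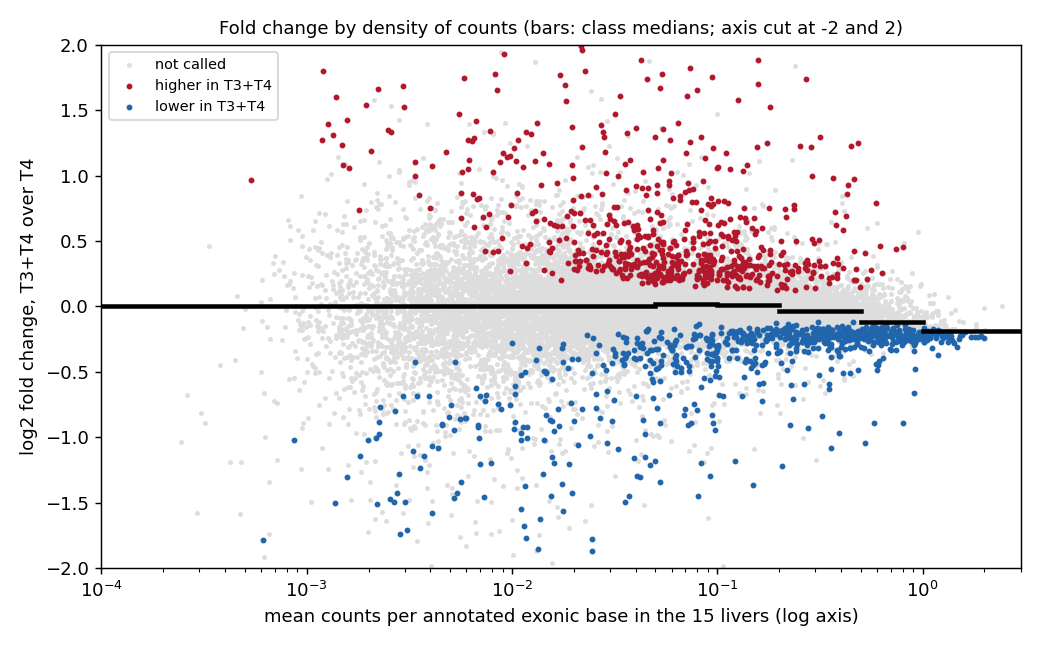
Log2 fold change, T3+T4 over T4, against the mean counts per exonic base in the 15 livers (log axis), 1 point per tested gene, with the y axis limited to -2 to 2. Bars are the medians of the density classes. The median was -0.19 above 1 count per base and -0.12 between 0.5 and 1.

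In gluconeogenesis, glycolysis and glycogen metabolism, 1 of 18 genes rose and 4 fell, beside 8.61% of all genes called in either direction. The list's median was 0.03 and its median density 0.368 counts per base. Genes of 0.2 to 0.5 counts per base were called lower in 10.3%. For genes of 0.5 to 1, such as Pcx at 0.614, the share was 28.6%. Of the list's 5 members of up to 0.2 counts per base, 0 were lower. Pcx, pyruvate carboxylase, the first step of gluconeogenesis from pyruvate, was at 388 to 469 CPM in T3+T4 livers and 512 to 673 CPM in T4 livers (log2 -0.41 ± 0.06, adjusted p = 2.69e-05), without overlap. Gbe1, the glycogen branching enzyme, rose by 0.50 (adjusted p = 0.00594), while Gys2, liver glycogen synthase, fell by 0.48 (adjusted p = 0.0216) and lost its call without T3+T4 animal 85 or T4 animal 46. In the growth hormone and IGF axis, 3 of 14 rose and 2 fell, beside 4.06% and 4.55% of all genes. The list's median was 0.17. Stat5a, a transcription factor activated by growth hormone and prolactin receptors, was at 60.4 to 96 CPM in T3+T4 livers and 46.1 to 60.1 CPM in T4 livers (log2 0.64 ± 0.11, adjusted p = 0.000777). Prlr, the prolactin receptor, was at 419 to 559 CPM in T3+T4 livers and 192 to 440 CPM in T4 livers (log2 0.68 ± 0.18, adjusted p = 0.0186). The IGF binding proteins Igfbp2 and Igfbp1 fell by 0.48 and 0.31 (adjusted p = 0.000201 and 0.0147), and their mean densities were 0.918 and 1.47 counts per base. Of 19 urea cycle and amino acid genes 2 fell, beside 4.55% of all genes and 10.3% of genes with 0.2 to 0.5 counts per base. The list's median density was 0.489 counts per base. The 2 were the aspartate carrier Slc25a13 (-0.22, adjusted p = 0.0068) and the transaminase Got2 (-0.18, adjusted p = 0.0256). Both calls were lost with log2 library total as a covariate and among animals numbered 54 to 85. That of Got2 was also lost without T3+T4 78, T4 69 or T4 70. In the immediate early and stress response list 2 of 24 genes were called, a share near the 8.61% of all genes: Hsph1, a heat shock protein, rose by 0.70 (adjusted p = 0.00424) and Ier3, a stress-induced survival gene, fell by 0.68 (adjusted p = 0.0237). The call of Ier3 was lost without T3+T4 72, 84 or 85 or T4 46 or 54. The 5 calls of the glucose and glycogen list were 3 without T3+T4 animal 85.

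No member was called among 27 genes of mitochondrial respiration, 23 of the cell cycle or 19 of the circadian clock. By edgeR's unadjusted p under 0.05, 2 respiration genes were higher and 2 lower, 2 cell cycle genes were higher and 0 clock genes passed, and DESeq2 called 0 in each. Of the markers of other cell types, Cxcr2 of granulocytes (-1.28), Dcn of stellate cells (-0.16) and Hba-a1 of erythroid cells (-0.26) were called lower (adjusted p = 0.0268, 0.0198 and 0.0468). The call of Cxcr2 was lost without T3+T4 72, 80 or 84 or T4 54 or 58. That of Hba-a1 was lost without T3+T4 77, 78, 79, 80 or 84 or T4 43, 46, 54, 58, 69 or 70. The Kupffer, lymphocyte, endothelial, cholangiocyte, muscle and sex-linked lists had 0 calls by edgeR or DESeq2. Unadjusted, 1 lymphocyte gene was higher, 2 endothelial genes were lower and 0 genes of the other 4 lists passed. Granulocyte markers summed to a median of 124 CPM in T3+T4 livers and 152 CPM in T4 livers. All 11 had a negative log2 fold change (median -0.81), 3 of them with an unadjusted p under 0.05 (edgeR). All 10 tested erythroid markers were negative too (median -0.26), 4 of them with an unadjusted p under 0.05. The median was -1.53 for the 7 muscle markers, -0.02 for the 11 stellate markers and 0.15 for the 12 lymphocyte markers.

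The effect of T3 in the absence of T4 was measured in other animals, as T3 livers against vehicle livers, which share no library with the T3+T4 and T4 groups. There 1155 genes (6.77%) were called, 602 higher (3.53%) and 553 lower (3.24%). Skeletal muscle markers moved with this comparison: 6 of 7 were called higher (median log2 fold change 4.44), and they summed to 5.68 to 431 CPM in T3 livers and 2.22 to 10.6 CPM in vehicle livers. Acinar markers were called lower in 6 of 8 and summed to 2.9 to 14.9 CPM in T3 livers and 4.05 to 235 CPM in vehicle livers. Without livers with raised acinar or muscle markers 83 genes were called. Their part in the other calls was not tested further. The count of 1155 was 622, 744 and 677 without vehicle animals 37, 38 and 55 in turn. By their sex genes, 1 of the T3 animals was male and 5 female, against 3 male and 2 female vehicle animals, and with sex as a covariate 618 genes were called. In both comparisons, 364 genes were called in the same direction (199 higher, 165 lower) and 9 in opposite directions. The 364 were 24.8% of the calls with T4 and 31.5% of the calls without T4. Of the 1469 genes called with T4, 1319 (89.8%) had the same sign without T4, against 9484 (60.8%) of the genes not called. Library totals were 6070280 ± 481634 counts in T3 livers and 5297107 ± 301534 in vehicle livers (SD), so they were larger with T3 in both comparisons. With log2 library total as a covariate, 524 genes were called for T3 against vehicle. The part of library size in the shared signs was not tested. Cholesterol genes had a median of 0.86 with T4, with 20 of 26 called higher, and a median of 0.33 without T4, with 4 called higher. Idi1 was 2.54 higher with T4 and 1.25 higher without T4 on the log2 scale (adjusted p = 0.000135 and 0.111). The difference between both effects was not past the threshold for Idi1 (adjusted p = 0.458), nor for any of the 26 cholesterol genes. Vldlr, Dio3, Abcc3 and Serpina7 fell without T4 as well, by 1.44, 1.55, 1.70 and 0.89 on the log2 scale (adjusted p = 0.0158, 0.0123, 0.000105 and 0.0267).

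**Figure D5:**
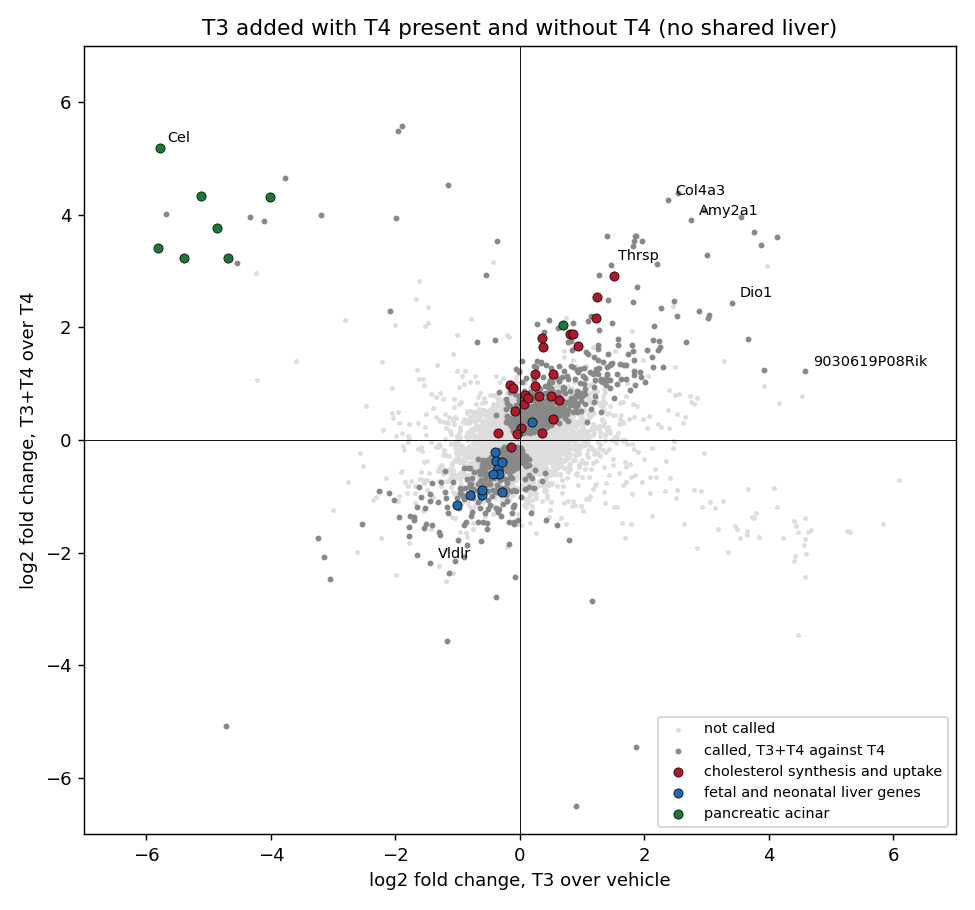
Log2 fold change of T3+T4 over T4 (y axis) against that of T3 over vehicle (x axis), 1 point per tested gene, both axes from -7 to 7. Cholesterol genes are red, fetal and newborn liver genes blue and acinar markers green. The cholesterol genes lie above 0 on both axes in their medians (0.86 and 0.33), and the acinar markers have opposite signs, with medians of 3.58 and -4.99.

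A test of the difference, the T3 effect with T4 minus the T3 effect without T4, called 23 genes (0.135%), 17 positive (0.0997%) and 6 negative (0.0352%). The positive ones include the acinar genes Cel (10.97, adjusted p = 0.027) and Ctrb1 (9.22, adjusted p = 0.0276). With 1 taken off each count, T3 livers held 1 count of Cel and 6 of Ctrb1 in all. T4 livers held 8 and 48, so the sizes of these differences rest on values near the floor. Acinar markers summed to up to 224 CPM in T3+T4 livers and up to 235 CPM in vehicle livers, and without the livers with raised acinar markers 1 gene was called. The clearest negative one was 9030619P08Rik, annotated as a pseudogene and named after its values were seen. It was at 80.3 to 122 CPM in T3+T4 livers and 22.5 to 59.5 CPM in T4 livers (log2 1.22, adjusted p = 0.000103), and averaged 86.4 ± 16.8 CPM in T3 livers and 3.59 ± 2.28 CPM in vehicle livers (SD, log2 4.59, adjusted p = 1.08e-11). The difference was -3.37 (adjusted p = 1.57e-06). Nt5e, the surface enzyme that makes adenosine from AMP, was at 181 to 233 CPM in T3+T4 livers and 114 to 198 CPM in T4 livers (log2 0.50). Its log2 fold change without T4 was 1.30, and the difference was -0.80 (adjusted p = 0.0268). Cyp3a44, a P450, had log2 fold changes of 0.65 with T4 and 2.80 without T4, with a difference of -2.16 (adjusted p = 0.0157). The count of 23 was 1 without vehicle animal 37, 3 without T4 46, T4 71, T3 61 or T3 65, 5 without T3 60, 10 without T3 64 and 39 without T3 62, and DESeq2 called 109.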

How the data were processed

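Liver RNA of 31 pups was read with a TruSeq stranded mRNA kit after TRIzol extraction, per the labels' protocols. The deposited table holds whole-number counts for 43629 genes. No deposited value is under 1 and 50.1% equal 1, so 1 seems to have been added to each count before deposit, though no source states this. Per the submitters' processing notes, tools included bcl2fastq, Trimmomatic, BWA 0.7.10 and DESeq, with the human build GRCh38, while the column names state mm10. The counting tool, its use of strand and the annotation are not given in the sources used here. Exonic lengths and positions came from GENCODE M21 (mm10), which held 42548 of the gene IDs (97.5%).

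Counts as deposited were filtered with filterByExpr to 17057 genes, scaled by TMM and entered edgeR's quasi-likelihood test (version 4.0.16 in R 4.3.3). All 31 libraries were fitted together, each group with its own mean, and p-values were adjusted by the Benjamini-Hochberg method (threshold 0.05). The 3 contrasts were T3+T4 minus T4, T3 minus vehicle, and their difference. Replicates are separate animals. Gene lists were described by counts and medians. Members and lists were chosen with earlier results of these data known. Named genes were the 8 largest rises and 8 largest falls with no overlap between groups, an adjusted p under 0.05 and a mean of at least 5 CPM, leaving out genes without a symbol, Gm and Rik genes and pseudogenes. They were also up to 3 called members of each of 17 functional lists and 2 of each of 11 marker lists, all thyroid hormone induced genes and up to 5 genes of the difference. The remaining named genes, among them Col4a4, Amy2a5, Amy2b, Cela1, Csrp3, Sqle, Igf2, Dlk1, Cidec, Prlr and Dio3os, were chosen after their values were seen. Some genes are not reported here. In simulated data of 17057 genes for T3+T4 against T4, 50, 46, 49 and 50 of 50 genes changed by -2, -1, 1 and 2 on the log2 scale were recovered, with 9 unchanged genes called. The simulated counts came from the kind of model that the test assumes, and only genes of at least 5 CPM were changed. They held no ceiling and no livers with raised acinar or muscle RNA, so recovery in the real data can be lower.
Alternatives were other scaling (median-of-ratios or library total alone), other filters, DESeq2 1.42.0, the counts less 1, counts corrected for their ceiling near 2 per base, covariates, and subsets of libraries. Intervals at 95% are the test's own.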

Additional observations from a re-analysis of the deposited data

Results flagged for a closer look

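Among 234 groups of livers over 117 named genes, 9 had 1 liver far from the rest of its group. Chance gives about 1 in 20, so these 9 are no more than chance alone would give. T4 animal 40 had the lowest Meg3 (27.3 CPM) and Peg3 (322 CPM) and the highest Slc16a10 (208 CPM) of the T4 livers. T4 animal 71 had the lowest Dcn (209 CPM) and G6pc (236 CPM). T4 animal 54 had the highest Cpb1 (1.05 CPM), and T4 animal 58 the lowest Col4a4 (2.27 CPM). In T3+T4 livers, animal 80 had the lowest Pax8 (0.334 CPM) and animal 84 the lowest Slc25a25 (237 CPM).

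The T3 effect with T4 differed from that without T4 in 23 genes. Of those named, the log2 difference was 10.97 for Cel, 9.222 for Ctrb1, 8.625 for Cpa1 and 8.335 for Cpb1, all acinar genes, and -3.365 for 9030619P08Rik, -2.156 for Cyp3a44 and -0.7994 for Nt5e. With 1 taken off each count, T3 livers held 1, 6, 0 and 5 counts in all of Cel, Ctrb1, Cpa1 and Cpb1. The sizes of the acinar differences are thus uncertain.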

How the results depend on the processing

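No paired analysis was possible because animal numbers are unique to each animal and no number occurs in more than 1 group. Of 101 called named genes, 11 kept their call in every alternative that gave a value (Dio1, Col4a3, Serpina9, Sult5a1, Cela1, Amy2b and the 5 Amy2a genes). The 1469 calls for T3+T4 against T4 became 703 among animals 54 to 85, 768 with log2 library total as a covariate, 143 without raised acinar or muscle genes, 39 at library totals of 5500000 to 6200000 (3 livers each) and 676 without raised acinar genes. Leaving out each library gave 947 to 1738, and without a filter 1468 genes were called, 1200 higher and 268 lower. The 1155 calls for T3 against vehicle became 275 in a fit of the compared groups, 618 with sex as a covariate, 763 without 4 animals of mismatched sex, 167 among animals 54 to 85, 524 with library total, 83 without raised acinar or muscle genes and 436 without raised acinar genes. Leaving out each library gave 622 to 1570 (622, 744 and 677 without vehicle 37, 38 and 55). Scaling by library total alone gave 1209 calls, 801 higher and 408 lower. The 23 calls for the difference became 14 without a filter, 10 at 5 CPM, 109 with DESeq2, 9 without mismatched animals, 0 among animals 54 to 85 (edgeR, 1455 unadjusted), 0 without raised acinar or muscle genes (869 unadjusted), 2 at matched totals and 1 without raised acinar genes. Leaving out each library gave 1 to 39: 3 without T4 46, T4 71, T3 61 or T3 65, 5 without T3 60, 10 without T3 64, 39 without T3 62 and 1 without vehicle 37. Signs turned for C3 (0.0033 at matched totals), Serpina1a (0.040 with library total, 0.044 at matched totals) and Ctrb1 (-0.34 without raised acinar genes), and the cause was not tested. Matched totals, omission of raised acinar livers alone and list counts were added after seeing the data. Subsets test fewer livers. At the deposited depth, genes near 2 counts per base cannot show their full change.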
